A study of Mus musculus with 2 samples.

Results

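The insulin-like growth factor binding proteins (IGFBPs) are secreted proteins encoded in the mouse by *Igfbp1* to *Igfbp7*. The family was taken as the 7 rows that carry these symbols, of 25810 rows with a gene symbol, and all 7 were found in both libraries. IGFBPs hold IGF-I and IGF-II outside the cell, so that they can carry the ligands, store them in the matrix, keep them from the IGF-I receptor or release them when a protease cuts the binding protein. Several members also act on cells without IGFs. In the mammary gland IGF-I is a survival signal for epithelial cells, and *Igfbp5* is known as a gene of involution, the regression of the gland after weaning. *Igfbp7* stands apart from the others, since its product binds IGFs only weakly.

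The study compared wild type (WT) and *Igfbp7*-/- mammary epithelial cells (MECs) from the inguinal glands of mice on lactation day 3, with 1 poly(A) RNA library per genotype. In the knockout, exon 1 of *Igfbp7* had been removed in embryonic stem cells with loxP sites and Cre recombinase, and lines without *Igfbp7* transcript founded the mice, so the loss affects every cell of the animal and not the mammary epithelium alone. The study's methods place the mice on the CD1 background and the sample labels give C57BL/6. Both samples were depleted of lineage positive cells by magnetic separation (CD45, CD31 and Ter119 in the methods, with CD35 in place of CD31 in the labels), and the number of animals behind each library is not given in the sources used here.

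The authors mapped 34327854 reads in WT and 35016847 in *Igfbp7*-/-, of which 82.37% and 72.32% fell on listed genes. Levels are given as RPM, read counts relative to all mapped reads of a library, and levels of different genes are compared per length, as RPKM (RPM per kilobase of transcript). Ranks, shares and sums by RPM or reads are named as such and weigh long transcripts more. The log2 ratio of *Igfbp7*-/- to WT was taken after adding 0.1 RPM to both values, and a gene was counted as higher or lower at a ratio of at least 1.5 in that direction. With no replicates, the variation between animals was not measured and no difference was tested. The 95% Clopper-Pearson intervals were computed on read pairs without the added 0.1 RPM and cover counting error only. In these bulk samples, fewer cells of a type and less RNA per cell cannot be told apart.

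The coding sequences show what the members share and where *Igfbp7* departs from them. The N-terminal IGFBP domain holds a run of cysteine, glycine, cysteine and cysteine, followed after any pair of residues by another cysteine. This motif was found in 6 of the 7 coding sequences, all but *Igfbp6*, each time in exon 1. The lines below give 45 coding bases around it, 5′ to 3′ on the coding strand, read from the NCBIM37 (mm9) genome, with the codons of the motif in capitals.
Igfbp1, chr11:7098124-7098168, plus strand: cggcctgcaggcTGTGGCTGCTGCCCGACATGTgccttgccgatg
Igfbp2, chr1:72871343-72871387, plus strand: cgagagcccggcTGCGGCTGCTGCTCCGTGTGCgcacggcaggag
Igfbp3, chr11:7113557-7113601, minus strand: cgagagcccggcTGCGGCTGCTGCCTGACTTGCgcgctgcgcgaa
Igfbp4, chr11:98902955-98902999, plus strand: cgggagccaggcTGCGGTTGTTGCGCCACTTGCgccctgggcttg
Igfbp5, chr1:72920528-72920572, minus strand: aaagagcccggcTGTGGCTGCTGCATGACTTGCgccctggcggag
Igfbp7, chr5:77836839-77836883, minus strand: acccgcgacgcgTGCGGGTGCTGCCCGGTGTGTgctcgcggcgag

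The *Igfbp7* copy of the motif therefore lies in the deleted exon. That exon also holds the start codon, shown in capitals at the head of the first 90 coding bases, and 475 of the 942 coding bases (50.4%) of the annotated transcript with the longest coding sequence. It encodes 16 of the 19 cysteines of the protein read from that transcript.
Igfbp7, chr5:77836950-77837039, minus strand: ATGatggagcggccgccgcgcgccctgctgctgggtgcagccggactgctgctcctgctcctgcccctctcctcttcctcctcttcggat

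In the C-terminal part, the cysteine, tryptophan, cysteine and valine run of the thyroglobulin type-1 domain was found in *Igfbp1* to *Igfbp6* and not in *Igfbp7*. By the longest annotated coding sequence of each gene, the encoded proteins have 238 (*Igfbp6*) to 313 (*Igfbp7*) residues. Pairwise protein identity was 34.5 to 47.3% over the 15 pairs among *Igfbp1* to *Igfbp6* and 30.9 to 38.4% over the 6 pairs with *Igfbp7*. The most alike pair was *Igfbp3* and *Igfbp5*. These are the members with the highest RPM in WT and in *Igfbp7*-/- respectively, and they also share a stretch rich in lysine and arginine that binds heparin and matrix. The stretch was sought with a fixed pattern, so like stretches of other spacing in other members would be missed. In *Igfbp3* and *Igfbp5* the stretch is encoded across the junction of exons 3 and 4, so its spliced sequence spans an intron. The codons of the basic stretch are in capitals.
Igfbp3, chr11:7108479-7109482, minus strand: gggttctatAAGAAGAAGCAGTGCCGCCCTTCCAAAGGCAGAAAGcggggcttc
Igfbp5, chr1:72909050-72909737, minus strand: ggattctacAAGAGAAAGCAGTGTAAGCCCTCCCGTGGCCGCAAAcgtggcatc

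*Igfbp1* and *Igfbp2* differ from the others by an arginine, glycine and aspartate (RGD) run, the sequence that integrins recognise. It is shown for *Igfbp2*, the expressed member of the pair, with its codons in capitals.
Igfbp2, chr1:72898647-72898679, plus strand: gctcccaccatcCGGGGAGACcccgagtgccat

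The targeted gene was examined first. *Igfbp7* (chr5:77778265-77837070, minus strand) had 5224 reads in WT, or 152.2 RPM. It had 37 reads in *Igfbp7*-/-, or 1.06 RPM, which was 0.694% (0.4 to 1.07%) of the WT level. Its log2 ratio of -7.04 (-7.97 to -6.55) was the lowest of all genes with at least 1 RPM in a library, and the remaining reads cannot be placed within the gene from a count per gene. *Igfbp7* was the 840th gene by RPM in WT and the 13118th in *Igfbp7*-/-.

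Of the 7 members, 6 reached 1 RPM in at least one library. In *Igfbp7*-/- MECs *Igfbp5* was higher, *Igfbp2* and *Igfbp3* were lower along with the deleted *Igfbp7*, and *Igfbp4* and *Igfbp6* stayed within 1.5 times. That is 1 member higher and 3 lower, where 21.4% of the 14026 genes past the same minimum were higher and 23.0% were lower. The median log2 ratio of the 6 members was -1.10 and that of all 14026 genes 0.035. The 6 include the deleted *Igfbp7* (-7.04). Among the others the middle value was that of *Igfbp4* (-0.46). Library scaling moved every member alike, and relative to *Hprt* no member was counted as higher, *Igfbp4* and *Igfbp6* joined the lower members, *Igfbp6* with a log2 ratio that turned to -0.61.

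**Figure D1:**
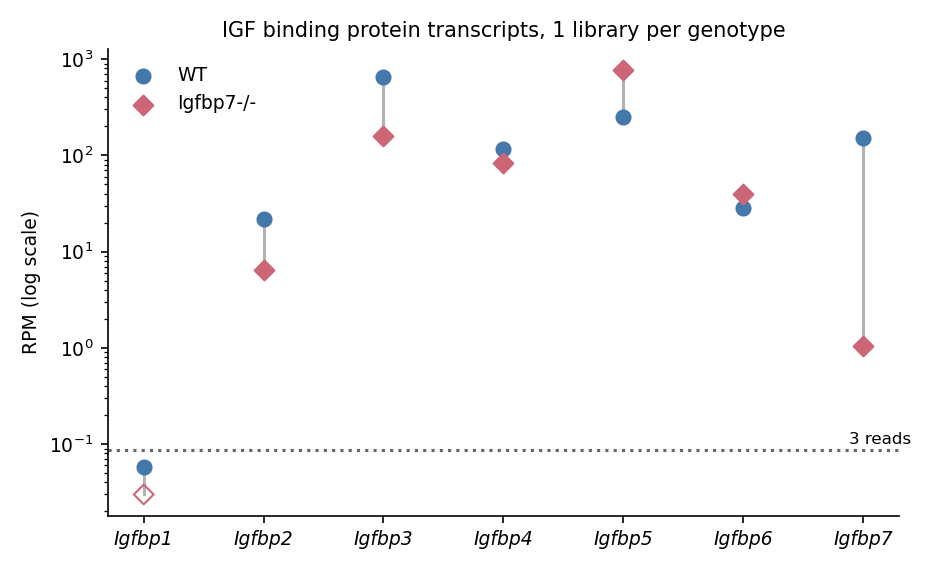
RPM (log axis) of the 7 IGFBP genes in the WT library (circles) and the Igfbp7-/- library (diamonds), 1 library per genotype, with a dotted line at 3 reads and an open diamond for a count of 0 drawn at the foot of the axis. Igfbp3 (645.2 RPM) had the most RPM in WT and Igfbp5 (763.3 RPM) in Igfbp7-/-, while Igfbp1 lay below 3 reads in both libraries.

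*Igfbp3* and *Igfbp5* encode the binding proteins that form the large complex with an IGF and the acid-labile subunit. *Igfbp3* (chr11:7106089-7113926, minus strand) had 22148 reads in WT (645.2 RPM, 262.7 RPKM). It had 5627 reads in *Igfbp7*-/- (160.7 RPM, 65.4 RPKM). WT was thus 4.01 times as high (3.85 to 4.19), a log2 ratio of -2.00 (-2.07 to -1.95), and 3.89% of the tested genes had a lower ratio. By RPM *Igfbp3* was the 112th gene in WT and the 764th in *Igfbp7*-/-.

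*Igfbp5* (chr1:72904506-72921458, minus strand) went the opposite way. It had 8599 reads in WT (250.5 RPM, 42.8 RPKM). It had 26728 reads in *Igfbp7*-/- (763.3 RPM, 130.4 RPKM). The knockout level was 3.05 times that of WT (2.94 to 3.15), a log2 ratio of 1.61 (1.56 to 1.66), and 2.97% of the tested genes had a higher ratio. *Igfbp5* moved from the 432nd to the 75th place by RPM.

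The RGD-bearing members were weakly expressed or near absent. *Igfbp2* (chr1:72871077-72899048, plus strand) had 754 reads in WT (21.96 RPM, 16.2 RPKM). It had 226 reads in *Igfbp7*-/- (6.45 RPM, 4.76 RPKM). The log2 ratio was -1.75 (-2.08 to -1.46), WT being 3.37 times as high, and the interval was wider than that of *Igfbp3* because fewer reads stood behind it. *Igfbp1* (chr11:7097785-7102549, plus strand), a liver-enriched member, had 2 reads in WT and 0 in *Igfbp7*-/-. Both counts were under 3 reads, which is 0.0874 RPM in WT and 0.0857 RPM in *Igfbp7*-/-, so no ratio is given and a difference was not detectable at this depth.

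*Igfbp4* and *Igfbp6* differed least. *Igfbp4* (chr11:98902558-98913969, plus strand), which encodes an inhibitory binding protein cut by the protease PAPP-A, had 3961 reads in WT (115.4 RPM, 55.8 RPKM) and 2940 in *Igfbp7*-/- (83.96 RPM, 40.6 RPKM). Its log2 ratio was -0.46 (-0.56 to -0.36), and it was counted as lower at -0.60 when the 20 genes of highest RPM were left out of the scaling. *Igfbp6* (chr15:101974793-101979942, plus strand) encodes the member that prefers IGF-II. It had 980 reads in WT (28.55 RPM, 21.9 RPKM) and 1387 in *Igfbp7*-/- (39.61 RPM, 30.4 RPKM), a log2 ratio of 0.47 (0.30 to 0.64). Both intervals left out a ratio of 1, so the libraries differed by more than the counting of reads, but by less than 1.5 times in *Igfbp4*. The upper bound of *Igfbp6* lay above 1.5 times, and scaled to the sum of listed counts *Igfbp6* passed it at a log2 ratio of 0.66.

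**Figure D2:**
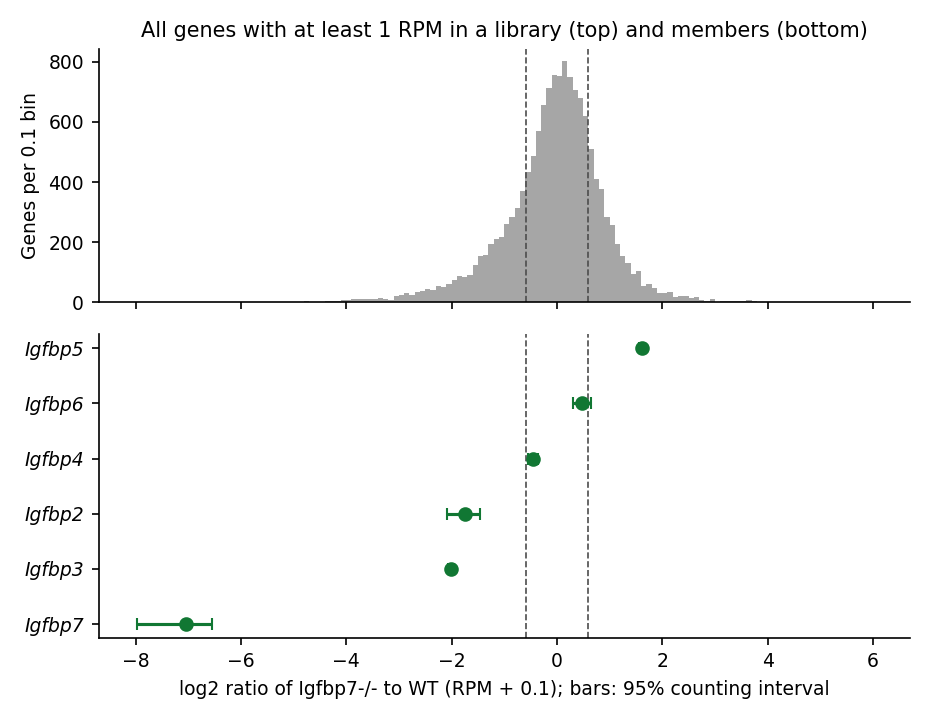
Log2 ratio of Igfbp7-/- to WT on RPM + 0.1 for the 14026 genes that reached 1 RPM in either library (top, genes per bin of 0.1) and for the 6 IGFBP genes among them (bottom, points with 95% counting intervals), with dashed lines at a ratio of 1.5 in either direction. Igfbp5 (1.61) lay to the right, Igfbp2 (-1.75) and Igfbp3 (-2.00) to the left, and Igfbp7 (-7.04) below every other gene.

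Per length, the order of the members changed between the libraries. In WT it ran *Igfbp3*, *Igfbp7*, *Igfbp4*, *Igfbp5*, *Igfbp6* and *Igfbp2*. In *Igfbp7*-/- it ran *Igfbp5*, *Igfbp3*, *Igfbp4*, *Igfbp6*, *Igfbp2* and *Igfbp7*. These orders rest on 1 library each, so neighbours could not be compared with a spread over samples. The length used by the authors was 5854 bp for *Igfbp5* and between 1213 and 2456 bp for the other members, so *Igfbp5* ranks lower per length than by reads.

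*Igfbp3* made up 50.1% of the summed family RPKM in WT and 24.0% in *Igfbp7*-/-. *Igfbp5* made up 8.15% in WT and 47.9% in *Igfbp7*-/-. *Igfbp5* was therefore the largest component in the knockout library and the fourth in WT. *Igfbp7* itself was 23.9% of the WT total and 0.32% of the knockout total. The shares of *Igfbp4* (10.6 and 14.9%) and *Igfbp6* (4.17 and 11.1%) were larger in *Igfbp7*-/-, that of *Igfbp4* although its own level was lower there. *Igfbp2* went from 3.09 to 1.75%.

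Without *Igfbp7* in the sum, *Igfbp3* was 65.8% of WT and 24.1% of *Igfbp7*-/-, and *Igfbp5* was 10.7 and 48.0%, so their order changed with the deleted gene left out as well. The ratio of *Igfbp5* to *Igfbp3* per length, which no library scaling can alter, was 0.163 (0.157 to 0.169) in WT. It was 1.99 (1.91 to 2.08) in *Igfbp7*-/-, which is 12.2 times the WT ratio. The ratio of *Igfbp5* to *Igfbp4* went from 0.767 (0.727 to 0.810) to 3.21 (3.04 to 3.39).

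The family total was lower in *Igfbp7*-/- per length. Summed RPKM was 524.8 in WT and 272.4 in *Igfbp7*-/-, a log2 ratio of -0.95 (-0.98 to -0.91). Without *Igfbp7* it was 399.4 and 271.5 (-0.56). The intervals of these totals are normal approximations from the counting error of the members, not Clopper-Pearson intervals. On the RPM scale, where the long *Igfbp5* transcript weighs more, the totals without *Igfbp7* were 1062 and 1054, a log2 ratio of -0.01 (-0.04 to 0.02). With *Igfbp7* they were 1214 and 1055 (-0.20, interval -0.23 to -0.17). The total of all 7 was thus lower on both scales, and that of the other 6 was lower per length and level by RPM. The shift from *Igfbp3* to *Igfbp5* was seen on both scales, since by reads *Igfbp3* was 53.2% of the family in WT (52.5 to 53.8%) and 15.2% in *Igfbp7*-/- (14.7 to 15.8%), and *Igfbp5* was 20.6% (20.1 to 21.2%) and 72.3% (71.7 to 73.0%).

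**Figure D3:**
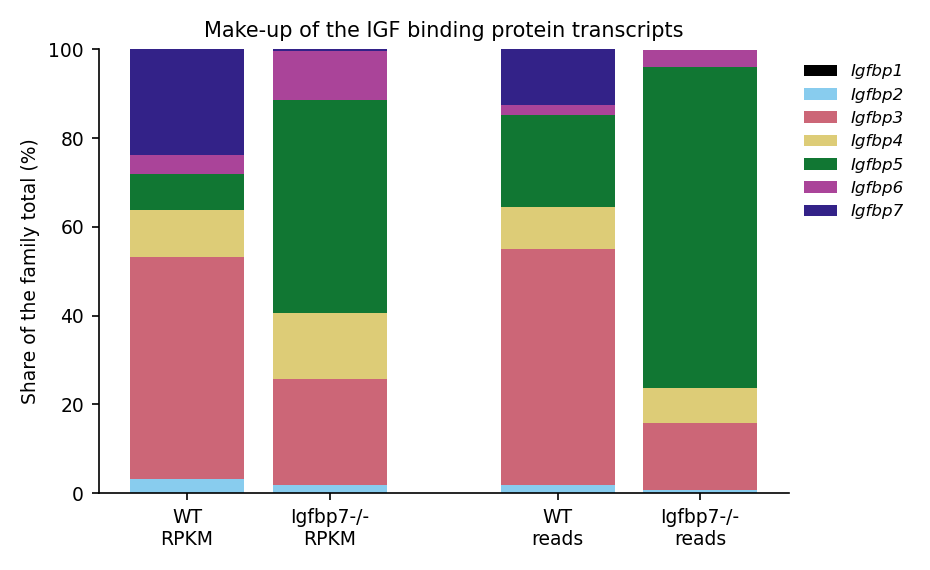
Share of each IGFBP gene in the family total (%), as stacked bars for the WT and Igfbp7-/- libraries, per length (RPKM, left pair) and by reads (right pair). Igfbp3 filled 50.1% of the WT bar and 24.0% of the Igfbp7-/- bar on the RPKM scale, and Igfbp5 8.15% and 47.9%.

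The genes on which the binding proteins act, or which act on them, were followed in a list of 25 IGF axis genes. Of the 20 past 1 RPM in a library, 2 were higher, 9 were lower and 9 stayed within 1.5 times, and their median log2 ratio was -0.08. Of all 14026 genes past this minimum, 21.4% were higher and 23.0% lower, with a median of 0.035. Both ligands were lower. *Igf1* had 16.7 RPM in WT and 9.42 RPM in *Igfbp7*-/- (log2 ratio -0.82), and *Igf2* had 54.9 and 22.1 RPM (-1.31). *Ins1* and *Ins2* had no reads in either library. The summed RPKM of *Igf1* and *Igf2* was 15.9 in WT and 6.78 in *Igfbp7*-/-. Transcripts of all 7 binding protein genes were thus 32.9 times the ligand transcripts per length in WT and 40.2 times in *Igfbp7*-/-. Leaving out *Igfbp7* (23.9% of the WT total and 0.32% of the knockout total) would lower the WT ratio and leave the other nearly the same. The ligand transcripts come from cells of the gland and do not count the IGF-I that arrives by the blood.

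None of the 3 receptors past the minimum passed 1.5 times, although relative to *Hprt* *Igf1r* and *Igf2r* did (-1.19 and -1.13). *Igf1r*, the signalling receptor, had 73.8 and 68.4 RPM (-0.11, interval -0.23 to 0.01). *Igf2r*, which clears IGF-II, had 129.1 and 124.6 RPM (-0.05, interval -0.14 to 0.03). Both intervals included a ratio of 1, so on read pairs a difference in these receptor transcripts was not detectable at this depth. Computed on single reads, the interval of *Igf1r* (-0.19 to -0.03) left out a ratio of 1 and that of *Igf2r* (-0.11 to 0.01) did not. *Insr*, the insulin receptor, had 43.96 and 65.7 RPM (0.58, interval 0.45 to 0.72), just inside the threshold. It passed the threshold by the sum of listed counts (0.77) and turned to -0.50 relative to *Hprt*. Of the receptor substrates, *Irs2* had 66.9 and 179.1 RPM (1.42) and *Irs1* 13.98 and 14.9 RPM (0.09). Relative to *Hprt* their log2 ratios were 0.34 and -0.98.

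Of the 6 genes for partners of the binding proteins, 4 were lower and 2 stayed within 1.5 times. Of all genes past the minimum, 23.0% were lower. *Igfals*, the acid-labile subunit of the complex with *Igfbp3* and *Igfbp5*, had 10.7 and 6.397 RPM (-0.73). By the sum of listed counts it stayed within 1.5 times (-0.55). *Csn1s2a*, the casein that IGFBP-5 binds in milk, had 13210 and 5835 RPM (-1.18). Both transcripts were thus lower in the library where *Igfbp5* was higher. Per length, *Csn1s2a* (14360 and 6343 RPKM) stayed far above *Igfbp5* in both libraries. *Lrp1*, a cell surface receptor that binds IGFBP-3, had 354.7 and 384.0 RPM (0.11).

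The proteases that release IGFs went in both directions. *Pappa*, the enzyme that cuts IGFBP-4, had 18.9 RPM in WT and 29.8 RPM in *Igfbp7*-/- (0.65, interval 0.45 to 0.86), but it stayed within 1.5 times without the 20 genes of highest RPM (0.51) and turned to -0.42 relative to *Hprt*. *Stc1*, which encodes the PAPP-A inhibitor stanniocalcin-1, had 80.9 and 11.7 RPM (-2.78, interval -3.01 to -2.58), the lowest ratio of the list. *Htra1*, a secreted serine protease that cuts IGFBP-5 and itself carries an IGFBP domain, had 229.6 and 122.4 RPM (-0.91). *Adam12* (33.6 and 38.1 RPM) and the lysosomal *Ctsd* (256.5 and 280.4 RPM) stayed within 1.5 times.

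Genes outside the family that encode an IGFBP domain did not move as a group. Of the 13 listed, 10 were past the minimum, with 3 higher, 4 lower and 3 within 1.5 times, and a median log2 ratio of -0.43. The shares over all genes were 21.4% higher and 23.0% lower, with a median of 0.035. *Cyr61*, a matricellular protein of the CCN family, had 249.7 RPM in WT and 1077 RPM in *Igfbp7*-/- (2.11, interval 2.06 to 2.16), a higher ratio than any IGFBP. Its relative *Ctgf* had 2879 and 2193 RPM (-0.39), *Nov* 13.9 and 13.0 RPM (-0.09) and *Wisp1* 14.6 and 7.48 RPM (-0.95). *Htra3*, a serine protease, had 31.2 and 66.5 RPM (1.09), opposite to *Htra1*. Relative to *Hprt* the log2 ratio of *Htra3* was 0.009, and that of *Htra1* stayed lower at -1.99. *Crim1*, a membrane protein, had 144.9 and 104.3 RPM (-0.47), and was counted as lower without the 20 genes of highest RPM (-0.61).

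**Figure D4:**
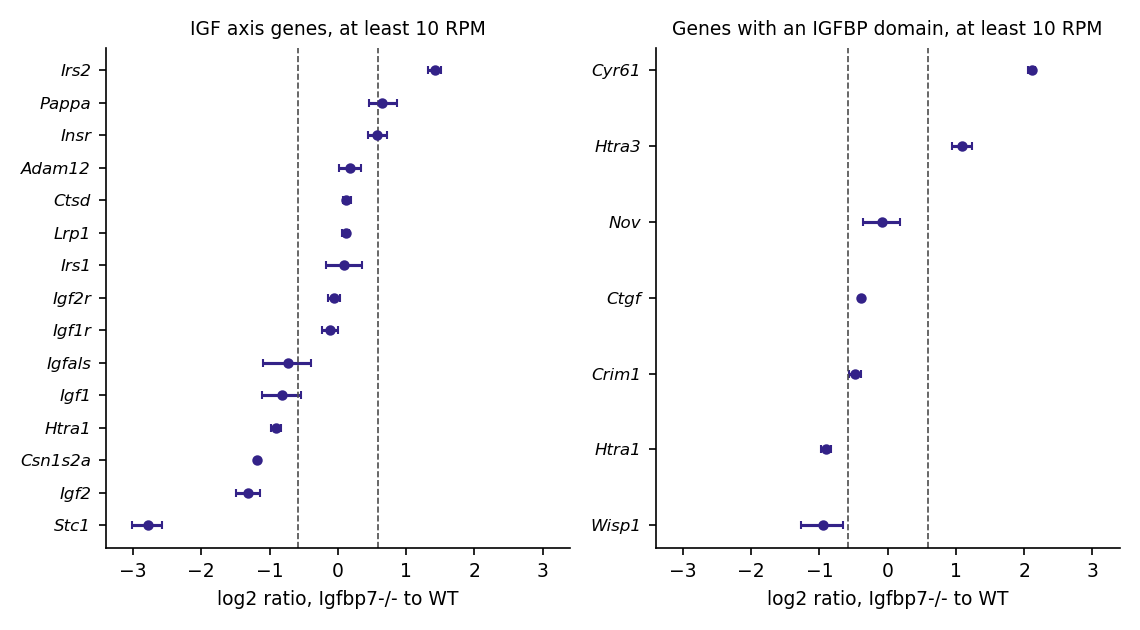
Log2 ratio of Igfbp7-/- to WT with 95% counting intervals for IGF axis genes (left) and genes that encode an IGFBP domain (right) with at least 10 RPM in one library that the text reports, and dashed lines at a ratio of 1.5 in either direction. Irs2 (1.42) and Cyr61 (2.11) stood highest in their lists, Stc1 (-2.78) and Wisp1 (-0.95) lowest, and Igf1r and Igf2r lay near 0.

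Some IGFBP genes lie in pairs, and 4 share a chromosome region with a tensin gene. *Igfbp2* and *Igfbp5* face each other on chromosome 1 with 5457 bp between their ends, and *Igfbp1* and *Igfbp3* on chromosome 11 with 3539 bp. The chromosome 1 neighbours went in opposite directions (-1.75 and 1.61), and in the chromosome 11 pair *Igfbp1* was near absent while *Igfbp3* was abundant. The tensin genes, which encode focal adhesion proteins, lay at different distances. *Tns1*, 1035346 bp from *Igfbp5* with *Tnp1* in between, had 685.1 and 304.9 RPM (-1.17). *Tns3*, 1217728 bp from *Igfbp3*, had 132.1 and 238.3 RPM (0.85). Both had the opposite sign to the IGFBP gene. *Tns4*, 13022 bp from *Igfbp4*, had 80.05 and 38.3 RPM (-1.06), and *Tenc1*, 27960 bp from *Igfbp6* with *Spryd3* in between, had 15.5 and 21.2 RPM (0.45). These had the same sign as the IGFBP gene, although *Igfbp4*, *Igfbp6* and *Tenc1* stayed within 1.5 times.

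Around the deleted gene, the nearest protein-coding genes among those listed that do not overlap it stayed within 1.5 times. Protein-coding genes that overlap *Igfbp7* or are not listed were not examined. *2610024G14Rik* had 8.07 RPM in WT and 9.42 RPM in *Igfbp7*-/- (0.22, interval -0.11 to 0.57). *Lphn3*, on the other side at a distance of 3612092 bp, had 17.8 and 13.4 RPM (-0.41, interval -0.66 to -0.16). Its interval left out a ratio of 1, and the lower bound lay past 1.5 times.

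For each member past 10 RPM, the genes nearest in level and ratio were sought by the Euclidean distance between log2(RPM + 0.1) values over the 2 libraries, so a short distance says only that a pair of values was alike. Nearest to *Igfbp3* were *Krt5* (579.3 and 182.3 RPM, distance 0.24), a keratin of basal and myoepithelial cells, and *Cdh5* (583.7 and 183.5 RPM, distance 0.24), the cadherin of endothelial cells. Nearest to *Igfbp5* were *Clu* (253.0 and 744.6 RPM, distance 0.0386), the secreted chaperone clusterin, and *Krt8* (268.1 and 789.0 RPM, distance 0.109), a luminal keratin. *Igfbp2* lay by *Tnfrsf11b* and *Elk3*, *Igfbp4* by *Lox* and *Rab2a*, and *Igfbp6* by *Sec11a* and *Cdk19*. *Igfbp7* had no close neighbour, the nearest being LOC100504404 at a distance of 1.05 and *H2-Eb1* at 1.36.

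The libraries also differed in the markers of the cell types they held. For comparison with the counts below, 21.4% of all genes past the minimum were higher and 23.0% were lower. Luminal markers were higher in *Igfbp7*-/-, 5 of 7 past the threshold and none lower, with a summed level of 1350 RPM in WT and 3417 RPM in *Igfbp7*-/- (highest *Krt18* and *Krt8*, median log2 ratio 1.56). All 6 hormone-sensing luminal markers past the minimum, of 7 listed, were higher (42.5 and 139.2 RPM, highest *Prlr* and *Esr1*, median 1.75). Among myoepithelial markers 10 of 11 were lower (3898 and 1231 RPM, highest *Acta2* and *Myh11*, median -1.67). Of alveolar markers, the milk protein and secretory genes, 7 of 9 were lower (126600 and 47610 RPM, highest *Csn2* and *Csn1s1*, median -1.26).

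Transcripts of cell types that the depletion targeted in the methods were still found. After the separation, the paper stained the cells for the markers named in its methods, CD31 included. It found few positive cells by flow cytometry and deemed their level insignificant. The labels name CD35 in place of CD31, so the sources differ on whether endothelial cells were depleted. Endothelial markers were lower in *Igfbp7*-/- in 9 of 10 cases (1591 and 507.4 RPM, median -1.63), with *Cdh5* and *Pecam1* (CD31, 322.5 and 88.9 RPM) the highest. Leukocyte markers were lower in 7 of 8 (196.4 and 81.6 RPM, median -1.39), *Ptprc* (CD45) having 43.5 and 18.1 RPM. No marker of these lists was at 0. Of the erythroid markers past the minimum, 0 of 4 passed the threshold (1066 and 1243 RPM, highest *Hbb-b1* and *Hba-a1*). *Hbb-b2* was not analysed here.

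Other stromal markers were mixed. Fibroblast markers were lower in 4 of 10 and higher in 1 (10690 and 5872 RPM, highest *Col3a1* and *Col1a1*), pericyte markers were lower in 4 of 6 (178.1 and 143.5 RPM, highest *Rgs5* and *Pdgfrb*), and of 5 adipocyte markers past the minimum 4 were lower and *Lep* was higher (572.9 and 193.9 RPM, highest *Fabp4* and *Lep*). No fibroblast, pericyte, adipocyte, luminal, myoepithelial, alveolar or hormone-sensing marker was at 0 in either library.

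Set beside the sums that were lower in *Igfbp7*-/-, the differences of *Igfbp3* and *Igfbp2* were smaller, to a degree that varied between lists. *Igfbp3* had 0.406 RPM per RPM of summed endothelial markers in WT and 0.317 in *Igfbp7*-/-, a log2 difference of -0.36 in place of -2.00, and the difference was -0.34 against myoepithelial, -0.44 against adipocyte, -0.59 against alveolar and -0.74 against leukocyte markers. For *Igfbp2* the differences against the same 5 lists were -0.12, -0.10, -0.20, -0.36 and -0.50. Against fibroblast and pericyte markers, also lower in sum, larger differences remained. They were -1.14 and -1.69 for *Igfbp3* and -0.90 and -1.455 for *Igfbp2*. Most of the adipocyte sum was *Fabp4* alone (543.5 and 173.4 RPM). *Igfbp5* was closest to the hormone-sensing markers, at 5.89 RPM per RPM of their sum in WT and 5.48 in *Igfbp7*-/- (-0.10), and next to the luminal markers, at 0.186 and 0.223 (0.27). Most of the hormone-sensing sum (42.5 and 139.2 RPM) was *Prlr* alone (30.15 and 102.6 RPM). Against endothelial markers the difference of *Igfbp5* was 3.26. *Igfbp7* was low against every marker list, between -5.51 (myoepithelial) and -8.88 (hormone-sensing). The part of cell composition in the *Igfbp2*, *Igfbp3* and *Igfbp5* differences was not tested.

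**Figure D5:**
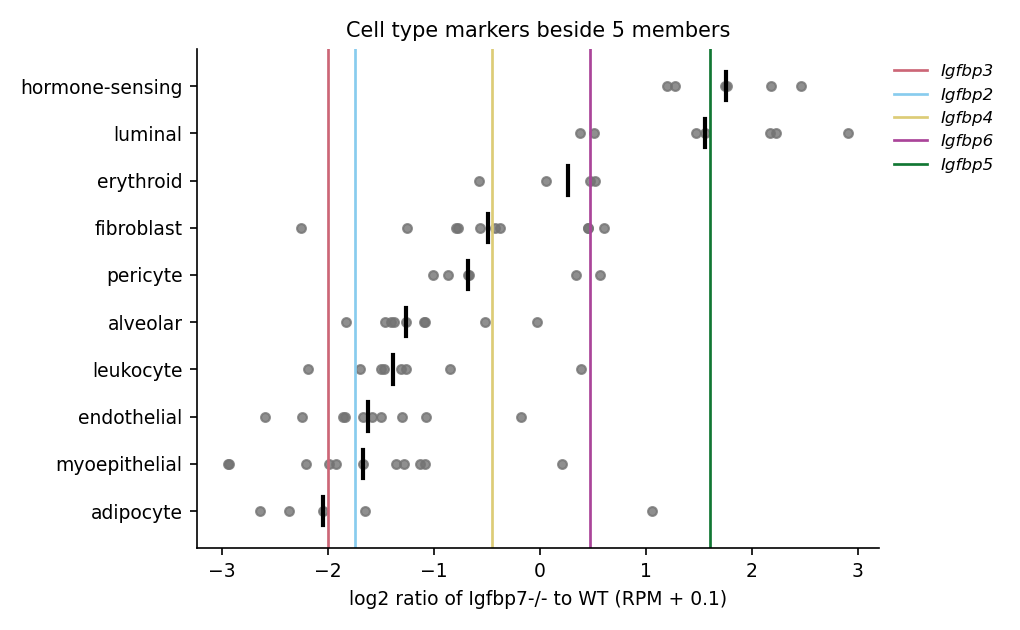
Log2 ratio of Igfbp7-/- to WT for each cell type marker past 1 RPM in a library (grey points) with the median of each list (black bars), and vertical lines at the ratios of 5 IGFBP genes. The line of Igfbp5 (1.61) runs through the luminal and hormone-sensing markers, and those of Igfbp2 (-1.75) and Igfbp3 (-2.00) cross the range of the adipocyte, myoepithelial, endothelial, leukocyte and fibroblast markers.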

How the data were processed

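Poly(A) RNA of 1 WT and 1 *Igfbp7*-/- sample was sequenced on a SOLiD instrument in paired ends of 35 and 75 bp. According to the methods and the submitters' processing notes, the authors removed reads of ribosomal, mitochondrial and small nuclear RNA and mapped the rest with Bowtie 0.12.3 in GeneSifter 4.0 (SAMtools 0.1.15), with at most 3 mismatches. The notes name mm9 and the methods a human build, and the symbols in the files are those of mouse genes. The annotation and the treatment of strand and of reads with several matches are not given in the sources used here. The authors deposited a raw read count per gene, the RPM (the count scaled to all mapped reads) and the RPKM (the RPM per kilobase of a gene length). Reads outside the listed genes are in the RPM denominator, and their share differed between the libraries.

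Groups followed the sample labels. Rows were matched by symbol, and 50 rows without one were left out (0.0495% of listed reads in WT, 0.067% in *Igfbp7*-/-). Ratios used RPM + 0.1 and genes with at least 1 RPM in a library. Intervals used counts divided by 2, because 75.8% and 74.1% of counts up to 20 were even. No test was possible with 1 library per genotype, and edgeR 4.0.16 and DESeq2 1.42.0 served only for scaling factors. The ratio and interval calculations were tested on simulated data. All 7 members are named, and other listed genes from 10 RPM in one library. Marker lists are given by counts, sums and the 2 genes of highest RPM, with *Ptprc* added as a defining marker. Some listed genes are counted but not reported here by name. The members and lists were chosen with earlier results of these data known. Positions and coding sequences came from the NCBIM37 genome and GENCODE annotation. The alternatives were other pseudocounts, minimums, a ratio of 2, RPKM and 8 other scalings. Python 3.11.15, numpy 2.4.6, pandas 2.3.3, scipy 1.17.1 and R 4.3.3 were used.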

Additional observations from a re-analysis of the deposited data

How the results depend on the processing

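*Igfbp2*, *Igfbp3*, *Igfbp5* and *Igfbp7* kept their direction under all settings tried, with log2 ratios of -2.82 to -1.57, -3.08 to -1.82, 0.53 to 1.80 and -8.07 to -6.22. *Igfbp4* ranged from -1.54 to -0.27 and *Igfbp6* from -0.61 to 0.66. The number of members higher was 0 relative to *Hprt* and 2 by the sum of listed counts, and the number lower was 5 relative to *Hprt*. *Hprt*, *Gapdh* and *Rpl32*, the reference genes of the study's qPCR, were added as scalings after seeing the data. *Hprt* had 1419 reads in WT and 3060 in *Igfbp7*-/- (log2 ratio 1.08), so scaling to it shifted abundant genes by -1.08 and weak ones by less, whereas *Rpl32* (4206 and 4170 reads) and the weakly counted *Gapdh* (92 and 95 reads) differed little. By the sum of listed counts 30.3% of all genes were higher and 18.4% lower, without the 20 genes of highest RPM 16.7% and 27.4%, and relative to *Hprt* 2.92% and 73.5%, because these scalings shifted abundant genes by 0.19, -0.14 and -1.08.

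The log2 ratio of the family total was -0.20 on the RPM scale, -0.56 without *Igfbp7*, -0.76 by the sum of listed counts, -1.09 without the 20 genes of highest RPM, -2.03 relative to *Hprt* and -0.91 relative to *Rpl32*. IGF axis genes higher numbered 4 with no minimum, beside 23.5% of all genes. The genes so added each had 0 reads in WT and 2 in *Igfbp7*-/-. IGF axis genes higher numbered 1 at a ratio of 2 (beside 9.64%) and 1 without the 20 genes of highest RPM (beside 16.7%). IGF axis genes lower numbered 5 at a ratio of 2, beside 13.8% of all genes. IGFBP-domain genes higher numbered 5 with no minimum, beside 23.5% of all genes. The genes so added had few reads, 2 and 8 in WT against 10 and 14 in *Igfbp7*-/-. IGFBP-domain genes lower numbered 2 with a minimum of 10 RPM (beside 20.4%) and 2 at a ratio of 2 (beside 13.8%). No paired analysis was possible because each genotype had 1 library, and for the same reason no replicate could be left out.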
